A study of Mus musculus with 12 samples.

Results

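The genes of cholesterol and fatty acid synthesis were examined in cultured mouse kidney tubular epithelial cells that carried an Nnmt expression construct or a mock construct, with or without TGFβ. The gene set was a list of 33 symbols matched to mouse Ensembl IDs, and all 33 were found among the 55487 gene IDs of the count table and among the 12897 genes with enough reads to be tested. By role, they are 8 enzymes of the mevalonate pathway, 11 enzymes that build cholesterol from farnesyl diphosphate, 5 genes of the SREBP (sterol regulatory element binding protein) system, 3 sterol transport genes and 6 enzymes of fatty acid synthesis and desaturation.

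Cells make cholesterol from acetyl-CoA through mevalonate, squalene and lanosterol, and they make fatty acids from the same acetyl-CoA supply through citrate and malonyl-CoA. Both branches are transcribed largely under SREBP transcription factors. When sterol in the endoplasmic reticulum is low, SCAP escorts the SREBP precursors to the Golgi for cleavage, and when it is high, the INSIG proteins hold SCAP back. The liver X receptors, which sense oxysterols, are known to induce Srebf1, Scd1 and genes of sterol efflux.

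There were 4 groups of 3 libraries each. Cells labelled Nnmt-OE had received the Nnmt construct and were given TGFβ at 10 ng/mL for 48 h in 1 group and none in another, and mock cells were handled in the same 2 ways. Both constructs were followed by puromycin selection. All groups shared the cell line, which carries an SV40 large T antigen and was expanded at 33 °C with interferon γ at 10 ng/mL and then kept at 37 °C without it for 7 days, and a medium with 10% serum, insulin at 5 ug/mL, EGF at 20 ng/mL, hydrocortisone at 36 ng/mL and T3 at 40 pg/mL, of which insulin and T3 are themselves known to act on lipid synthesis. The labels do not say that the replicates were separate cultures, so the p-values measure the spread between these libraries, which may be technical. Construct and treatment groups have library codes that do not interleave, so handling order and group cannot be told apart.

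Libraries were made from 100 ng of RNA by a forward 3′ tag method, in which a transcript gives about 1 tag whatever its length. Between 4733846 and 7247413 reads per library fell in genes, and levels are given as CPM, the read count scaled to the library's total in tested genes. Nnmt itself did not check the construct, since its level in labelled Nnmt-OE cells was 0.909 times that in mock cells with TGFβ (95% interval 0.677 to 1.22) and 1.25 times without (0.921 to 1.69), and a 3′ tag need not come from a construct. Acta2, a gene that TGFβ is known to induce, was 5.27-fold higher with TGFβ in labelled Nnmt-OE cells and 3.90-fold higher in mock cells. Over all genes, 3 libraries stood apart in a principal component analysis, namely replicate 3 of labelled Nnmt-OE with TGFβ, replicate 3 of mock with TGFβ and replicate 1 of mock. Of 12 tubular markers, 7 were expressed well enough to be tested, among them Pax8, Cdh16 and Aqp1, whereas Epcam and Cdh1 had no read in any library. Krt18, Krt19 and Slc34a1 had too few reads to be tested (40, 8 and 1 over all libraries). Because RNA was taken from whole cultures, fewer cells of a kind and less RNA per cell cannot be told apart.

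Reference promoters were available for 26 of the 33 genes, 5 of which had 2 or 3 windows (34 windows in all), and 4 are shown because they belong to the only member that edgeR called (Hsd17b7), to sterol and mevalonate enzymes with many reads (Cyp51, Hmgcs1) and to the enzyme that opens the lipogenic branch (Acly). Each is the 250 bases before the gene start in RefSeq's GRCm38.p6 annotation, written 5′ to 3′ on the strand of the gene. Capitals mark exact matches, on either strand, to the sterol regulatory element TCACNCCAC, the E-box CACGTG, the CCAAT box or the GC box GGGCGG.
Hsd17b7 (chr1:169969206-169969455, minus strand): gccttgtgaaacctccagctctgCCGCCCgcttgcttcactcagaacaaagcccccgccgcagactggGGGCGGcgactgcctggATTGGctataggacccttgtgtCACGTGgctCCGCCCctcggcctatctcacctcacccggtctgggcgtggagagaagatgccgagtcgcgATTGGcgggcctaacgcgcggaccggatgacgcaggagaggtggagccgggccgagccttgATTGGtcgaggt
Cyp51 (chr5:4104698-4104947, minus strand): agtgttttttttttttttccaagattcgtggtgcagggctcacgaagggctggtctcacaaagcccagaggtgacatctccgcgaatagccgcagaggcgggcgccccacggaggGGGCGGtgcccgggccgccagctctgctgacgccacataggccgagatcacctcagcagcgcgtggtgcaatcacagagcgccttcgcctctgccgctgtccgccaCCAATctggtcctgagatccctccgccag
Hmgcs1 (chr13:119690101-119690350, plus strand): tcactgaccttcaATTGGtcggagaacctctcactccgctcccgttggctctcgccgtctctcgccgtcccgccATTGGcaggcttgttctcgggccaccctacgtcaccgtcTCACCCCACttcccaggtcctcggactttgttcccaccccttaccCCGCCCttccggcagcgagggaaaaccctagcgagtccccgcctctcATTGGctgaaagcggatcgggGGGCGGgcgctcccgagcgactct
Acly (chr11:100528001-100528250, minus strand): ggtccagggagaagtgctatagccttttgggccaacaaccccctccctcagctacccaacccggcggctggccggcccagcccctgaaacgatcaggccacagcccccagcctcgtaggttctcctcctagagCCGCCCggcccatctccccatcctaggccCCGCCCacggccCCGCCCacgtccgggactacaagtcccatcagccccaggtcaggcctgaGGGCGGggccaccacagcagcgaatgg

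Counted by gene, where any window of the gene may hold the match, the CCAAT box was present for 21 of the 26 members (80.8%), against 41.2% of the 8961 tested genes with a promoter. Of the 16 mevalonate or sterol enzymes among the members with a promoter 15 held it, and Acly was among the genes without it. Counted by window, it was in 22 of 34 member windows (64.7%), against 33.8% of all 32851. The GC box was also present for 21 of the 26 members, against 66.2% of those tested genes, and in 70.6% of member windows, against 32.7% of all. The E-box was present for 5 members (Hsd17b7, Sc5d, Dhcr7, Scap and Insig1), or 19.2%, against 10.1% of those tested genes, and in 14.7% of member windows, against 6.02% of all. The exact sterol element was found in Hmgcs1 only, between 137 and 129 bases before the start, and in 1.05% of all windows. No 2 matches overlap in the promoters shown, and a match is a description of the sequence and not a measured binding site.

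TGFβ raised 1 of the 33 genes, Hsd17b7, when its effect was averaged over both constructs, and 32 did not pass the test. In the same comparison 655 of 12897 genes (5.08%) were called, 320 of them higher (2.48%). At an unadjusted p under 0.05 there were 7 members higher and 2 lower, where 16.6% of all genes passed in either direction. Hsd17b7 encodes the 3-ketosteroid reductase that acts in the removal of the C4 methyl groups of lanosterol. It stood at 80.7, 57.8 and 81.3 CPM in labelled Nnmt-OE cells with TGFβ, against 53.1, 62.2 and 68.0 CPM without. The mock libraries stood at 68.7, 69.9 and 79.9 CPM with TGFβ, against 49.9, 53.0 and 52.8 CPM without. The mock groups did not overlap, while in labelled Nnmt-OE cells replicate 2 with TGFβ lay inside the range of the untreated libraries. The averaged change was 1.30-fold, or 0.37 ± 0.10 on the log2 scale (SE; 95% interval 0.16 to 0.58), with an adjusted p of 0.0230 by edgeR's quasi-likelihood test with Benjamini-Hochberg adjustment over all genes. The call was lost without replicate 1 of labelled Nnmt-OE (adjusted p 0.0860), replicate 1 or 3 of labelled Nnmt-OE with TGFβ (0.0832 and 0.0786), replicate 3 of mock with TGFβ (0.0568) or all 3 libraries that stood apart (0.143 at a log2 change of 0.29). Within 1 construct at a time it was not called, with log2 changes of 0.26 ± 0.15 in labelled Nnmt-OE and 0.49 ± 0.15 in mock cells (adjusted p 0.533 and 0.0870).

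The other mevalonate and sterol enzymes mostly had small positive changes with TGFβ that did not pass the test. Of the 19 enzymes, 18 had a positive averaged log2 change, with a median of 0.15, against 49.2% of all genes and a median of -0.0046. Leaving out any 1 library gave between 16 and 19 positive, with a median between 0.12 and 0.17. In labelled Nnmt-OE cells 15 of 19 were positive (median 0.13) and in mock cells 15 of 19 (median 0.15), against 49.7% of all genes in each. These are counts over genes of 1 pathway in the same libraries, which are not independent of each other. Across all 33 genes the sign of the TGFβ change was the same in both constructs for 23 (69.7%), of which 18 were higher and 5 lower, and over all tested genes the share was 61.1%.

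**Figure D1:**
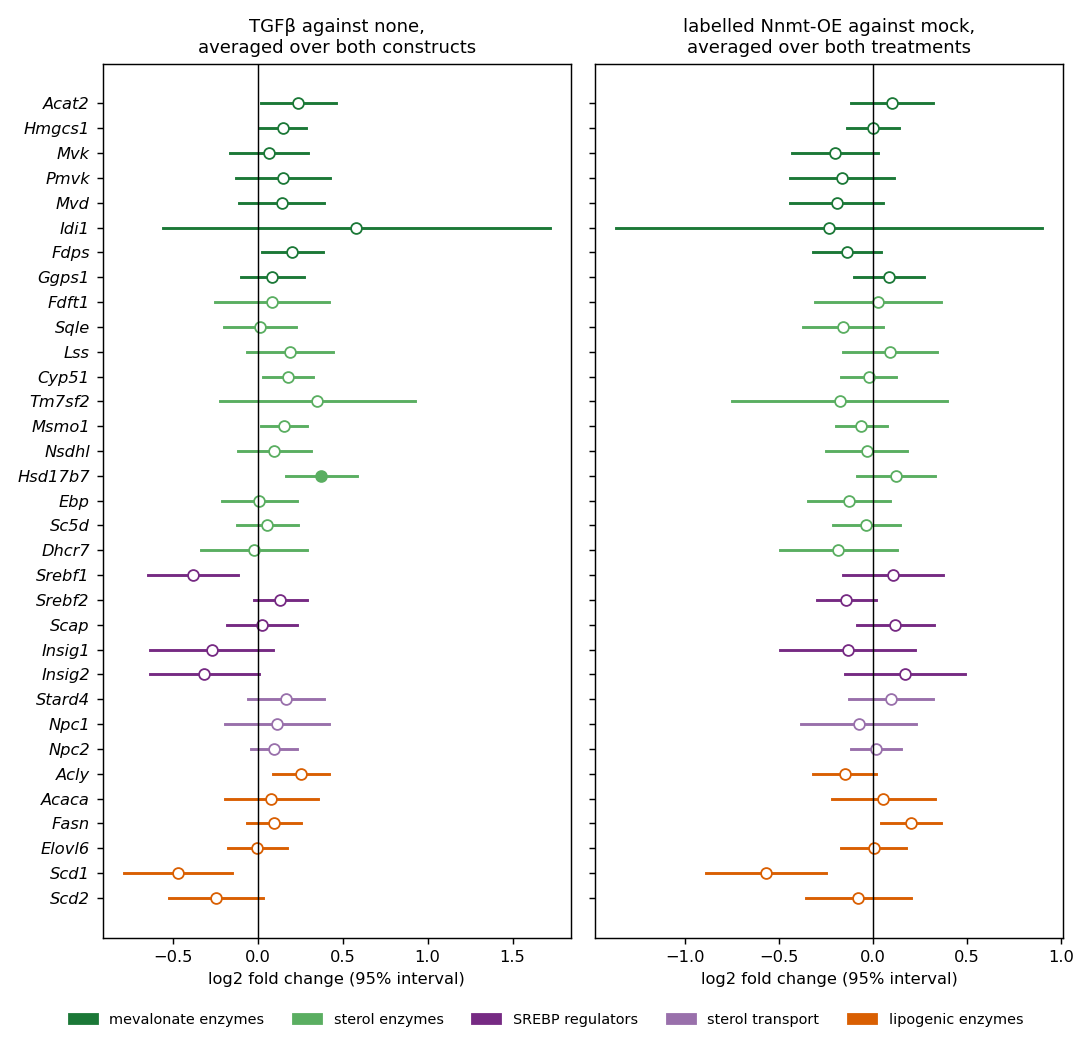
Log2 fold changes with 95% intervals (horizontal axis) for the 33 genes, with TGFβ against none on the left and labelled Nnmt-OE against mock on the right, from 12 libraries and coloured by role. A filled point marks an adjusted p under 0.05, which only Hsd17b7 reached, on the left; the mevalonate and sterol enzymes lie mostly right of 0 there, while Srebf1, Insig1, Insig2, Scd1 and Scd2 lie left of it.

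Among the mevalonate enzymes, Hmgcs1, which condenses acetoacetyl-CoA and acetyl-CoA to HMG-CoA, had 371, 359 and 377 CPM in labelled Nnmt-OE cells with TGFβ, against 339, 352 and 304 CPM without. Mock cells had 390, 381 and 333 CPM with TGFβ, against 288, 380 and 331 CPM without. The groups were narrowly apart in labelled Nnmt-OE cells and overlapped in mock cells, and the averaged log2 change of 0.15 ± 0.07 missed the threshold (adjusted p 0.237, edgeR). Acat2, the cytosolic acetoacetyl-CoA thiolase that opens the pathway, had a change of 0.24 ± 0.11, of which the highest library, replicate 3 of labelled Nnmt-OE with TGFβ at 89.9 CPM, lay far above all others (48.8 to 64.2 CPM). Fdps, which makes farnesyl diphosphate, had a change of 0.20 ± 0.09 and averaged 88.7 ± 10.5 CPM with TGFβ and 75.7 ± 5.24 CPM without in labelled Nnmt-OE cells (SD, n = 3 each). Its adjusted p was 0.222 by edgeR's test, and that of Acat2 was 0.244. The kinases Mvk and Pmvk, the decarboxylase Mvd and the synthase Ggps1, which makes geranylgeranyl diphosphate for protein prenylation, had averaged changes between 0.06 and 0.15, none of them called. Idi1, the isopentenyl diphosphate isomerase, had only 161 reads over all 12 libraries, and its log2 change of 0.58 had a 95% interval of -0.55 to 1.72, so that neither a rise nor a fall was detectable at this depth.

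Among the sterol enzymes, Cyp51, the lanosterol demethylase, had 208, 254 and 219 CPM in labelled Nnmt-OE cells with TGFβ, against 179, 243 and 198 CPM without. Its mock libraries had 235, 243 and 235 CPM with TGFβ, against 204, 202 and 204 CPM without. The mock groups were well apart with little spread within each, and those of labelled Nnmt-OE cells overlapped. The averaged change was 0.18 ± 0.07 (adjusted p 0.176, edgeR), and it passed the threshold only when replicate 2 of labelled Nnmt-OE, its highest untreated library, was left out (0.25, adjusted p 0.0357). Msmo1, the methyl sterol oxidase that acts on the same C4 methyl groups as Hsd17b7, had a change of 0.15 ± 0.07 and averaged 236 ± 8.72 CPM with TGFβ and 215 ± 14.8 CPM without in labelled Nnmt-OE cells. In mock cells Msmo1 averaged 250 ± 11.7 CPM with TGFβ and 221 ± 15.7 CPM without (SD, n = 3 each), with no overlap between the mock groups. Nsdhl, the dehydrogenase of the same step, had a change of 0.10 ± 0.11.

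Lss, the cyclase that forms lanosterol, had the smallest p of the members for a difference between the constructs in the TGFβ change. It had 34.5, 35.8 and 44.6 CPM in labelled Nnmt-OE cells with TGFβ, against 43.8, 34.6 and 44.4 CPM without. Mock cells had 45.0, 40.0 and 46.7 CPM with TGFβ, against 28.6, 31.4 and 34.5 CPM without. The mock groups did not overlap, and those of labelled Nnmt-OE cells did. The log2 change was -0.10 ± 0.17 in labelled Nnmt-OE cells and 0.48 ± 0.18 in mock cells, and the interaction, the difference between these changes, was -0.57 ± 0.25 with an unadjusted p of 0.0263 and an adjusted p of 0.999 by edgeR's test. Tm7sf2, a sterol C14 reductase, was the other member with an unadjusted interaction p under 0.05 (0.0475), at 3.04 to 14.4 CPM and 576 reads in all. By the adjusted p, the interaction called 0 of 33 members and 0 of 12897 genes (0%), DESeq2 likewise called 0, and 501 genes (3.88%) had an unadjusted p under 0.05.

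The squalene-forming Fdft1, the epoxidase Sqle, the isomerase Ebp, the desaturase Sc5d and the reductase Dhcr7, which makes cholesterol from 7-dehydrocholesterol, had averaged TGFβ changes between -0.02 and 0.08. Their 95% intervals all covered 0 and reached from -0.34 to 0.42 over the 5 genes. Sqle had 164 CPM in replicate 1 of mock and 93.5 to 131 CPM in the other libraries. Read together as a summed level, the 11 sterol enzymes had 912 to 1006 CPM in labelled Nnmt-OE cells with TGFβ, against 831 to 965 CPM without. In mock cells the sum was 979 to 1025 CPM with TGFβ, against 857 to 969 CPM without. These sums were narrowly apart in mock cells and overlapped in labelled Nnmt-OE cells. The summed level of the mevalonate enzymes was 695 to 745 CPM in labelled Nnmt-OE cells with TGFβ, against 616 to 675 CPM without. For mock cells that sum was 703 to 769 CPM with TGFβ, against 626 to 702 CPM without. The mevalonate sums were thus apart in both constructs, though only narrowly in mock cells.

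**Figure D2:**
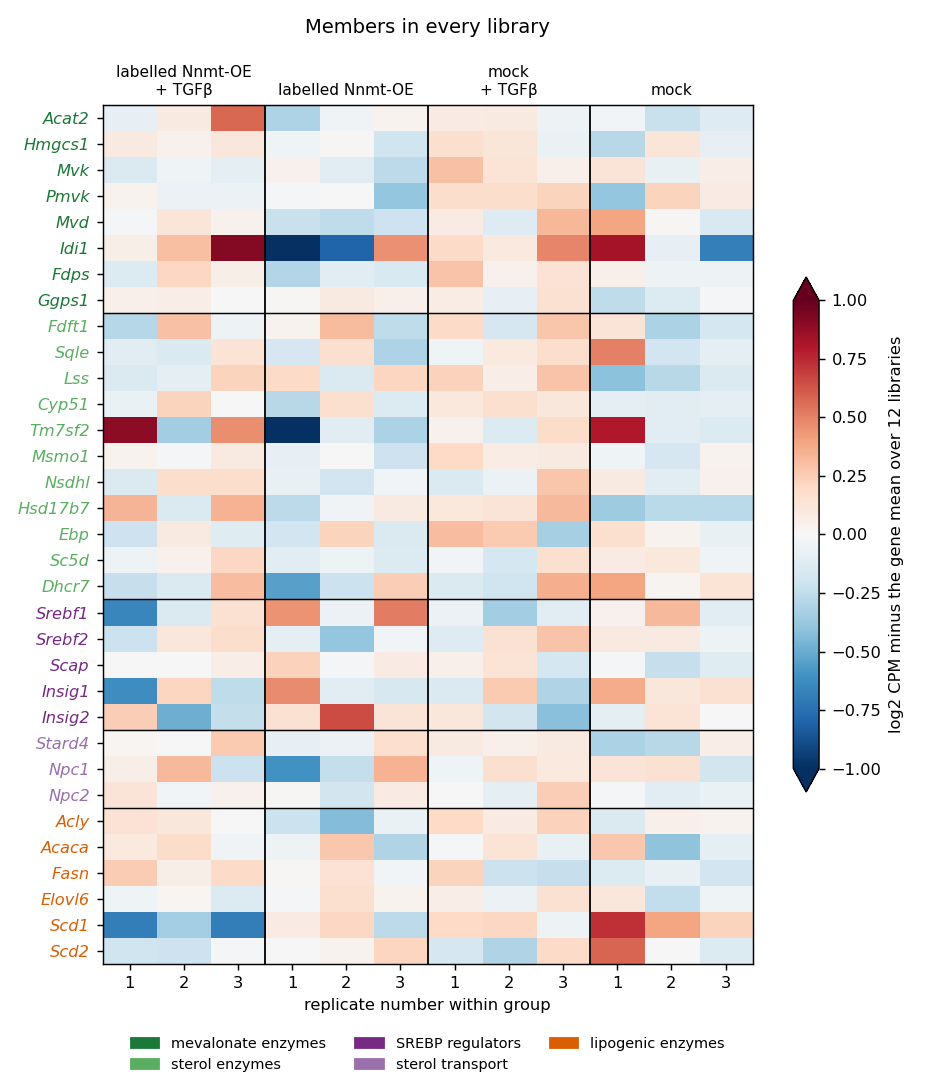
Log2 CPM of each gene minus its mean over the 12 libraries, with genes in rows by role and libraries in columns by group; colours are capped at 1 in either direction, which Idi1 and Tm7sf2 exceed. The red cells of the mevalonate and sterol enzymes gather in the TGFβ libraries, most of all in mock with TGFβ, and replicate 1 of mock differs from its partners in Sqle, Mvd, Scd1 and Scd2.

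Library by library, the median deviation of the 19 mevalonate and sterol enzymes from their own means was -0.06, 0.04 and 0.11 on the log2 scale in labelled Nnmt-OE cells with TGFβ, against -0.17, -0.04 and -0.15 without. In mock cells it was 0.11, 0.07 and 0.18 with TGFβ, against 0.08, -0.10 and -0.08 without. Replicate 1 of labelled Nnmt-OE with TGFβ and replicate 1 of mock were the libraries that went against the rest of their treatment. Of the 19 enzymes, 7, 11 and 14 were above their mean in the labelled Nnmt-OE libraries with TGFβ, against 4, 7 and 6 without. In the mock libraries 15, 12 and 16 were above it with TGFβ, against 11, 6 and 5 without. These counts met at 7 in labelled Nnmt-OE cells and were narrowly apart in mock cells.

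None of the 5 genes of the SREBP system passed the test, and the direction was split. Srebf1, which encodes SREBP-1, the activator of the lipogenic genes, had 28.1, 40.0 and 49.2 CPM in labelled Nnmt-OE cells with TGFβ, against 60.4, 42.5 and 63.1 CPM without. Its mock libraries had 42.5, 34.8 and 41.0 CPM with TGFβ, against 45.5, 55.4 and 41.0 CPM without. Most TGFβ libraries were lower, but the groups overlapped within both constructs. The averaged change was -0.38 ± 0.13 (unadjusted p 0.00589, adjusted p 0.0855, edgeR). It passed the threshold without replicate 3 of labelled Nnmt-OE with TGFβ (-0.48, adjusted p 0.0362), without replicate 2 of labelled Nnmt-OE (-0.46, adjusted p 0.0318) and without the 3 libraries that stood apart (-0.50, adjusted p 0.0175). Without those 3 libraries it was also called within labelled Nnmt-OE cells, at -0.70 (adjusted p 0.0329), where all libraries together gave -0.50 (adjusted p 0.217). Leaving out replicate 1 of labelled Nnmt-OE with TGFβ, its lowest library, brought that change to -0.31 (adjusted p 0.648, edgeR) and the averaged one to -0.28 (adjusted p 0.285), and 10 of the 12 fits that left out 1 library did not call the averaged change.

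Srebf2, which encodes SREBP-2, the activator of the sterol branch, had a change of 0.13 ± 0.08 and Scap one of 0.03 ± 0.10. The INSIG genes had negative changes, -0.27 ± 0.18 for Insig1 and -0.31 ± 0.16 for Insig2, with adjusted p values of 0.485 and 0.315 by edgeR's test. Insig2 had 29.6, 17.7 and 21.1 CPM in labelled Nnmt-OE cells with TGFβ, against 27.7, 39.3 and 27.3 CPM without, and replicate 1 with TGFβ lay inside the untreated range. In mock cells Insig2 had 26.9, 21.9 and 18.6 CPM with TGFβ, against 23.3, 27.4 and 25.0 CPM without. Of the sterol transport genes, Stard4, a soluble sterol carrier, had a change of 0.16 ± 0.11, and the lysosomal cholesterol exporters Npc1 and Npc2 had changes of 0.11 ± 0.15 and 0.10 ± 0.07. None of these 3 was called.

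The 6 lipogenic enzymes had changes of either sign, and edgeR called none of them. Acly, which makes cytosolic acetyl-CoA from citrate and so feeds both branches, had 124, 122 and 112 CPM in labelled Nnmt-OE cells with TGFβ, against 97.0, 83.5 and 108 CPM without. Mock cells had 130, 119 and 132 CPM with TGFβ, against 102, 117 and 116 CPM without. The TGFβ libraries were above the untreated ones within each construct, with no overlap. The averaged change of 0.25 ± 0.08 missed the threshold (adjusted p 0.0632, edgeR) and passed it with DESeq2 (adjusted p 0.0391) or without replicate 3 of labelled Nnmt-OE (0.30, adjusted p 0.0409, edgeR). It was not called in the other fits that left out 1 library, and without replicate 2 of labelled Nnmt-OE, its lowest library, it was 0.21 (adjusted p 0.178, edgeR).

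Scd1, which introduces the double bond of oleate and palmitoleate, had a change of opposite sign. It had 13.7, 17.7 and 13.8 CPM in labelled Nnmt-OE cells with TGFβ, against 23.8, 26.0 and 18.7 CPM without. Its mock libraries had 25.8, 25.9 and 21.6 CPM with TGFβ, against 37.3, 29.5 and 26.1 CPM without. Its TGFβ libraries were below the untreated ones in both constructs without overlap, though only narrowly in mock cells (25.9 against 26.1 CPM). The averaged change was -0.47 ± 0.16 (adjusted p 0.0758 by edgeR and 0.0494 by DESeq2). By edgeR it was not called in any fit that left out 1 library, nor without the 3 libraries that stood apart (-0.32, adjusted p 0.369). Scd2, its close paralogue, had 372, 371 and 423 CPM in labelled Nnmt-OE cells with TGFβ, against 428, 438 and 497 CPM without, the groups being narrowly apart. In mock cells Scd2 had 380, 346 and 488 CPM with TGFβ, against 641, 427 and 389 CPM without, with replicate 1 of mock far above all other libraries. Its averaged change of -0.24 ± 0.13 had an adjusted p of 0.379 by edgeR's test, which became 0.0132 without the 3 libraries that stood apart (-0.23) and 0.0194 without the filter on low counts. Without replicate 1 of mock alone the averaged change was -0.12 (adjusted p 0.450, edgeR), and no fit that left out 1 library called it (adjusted p up to 0.526). Fasn, the fatty acid synthase, Acaca, which makes malonyl-CoA, and the elongase Elovl6 had changes of 0.10 ± 0.08, 0.08 ± 0.14 and -0.00 ± 0.09 with TGFβ, none of them called.

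**Figure D3:**
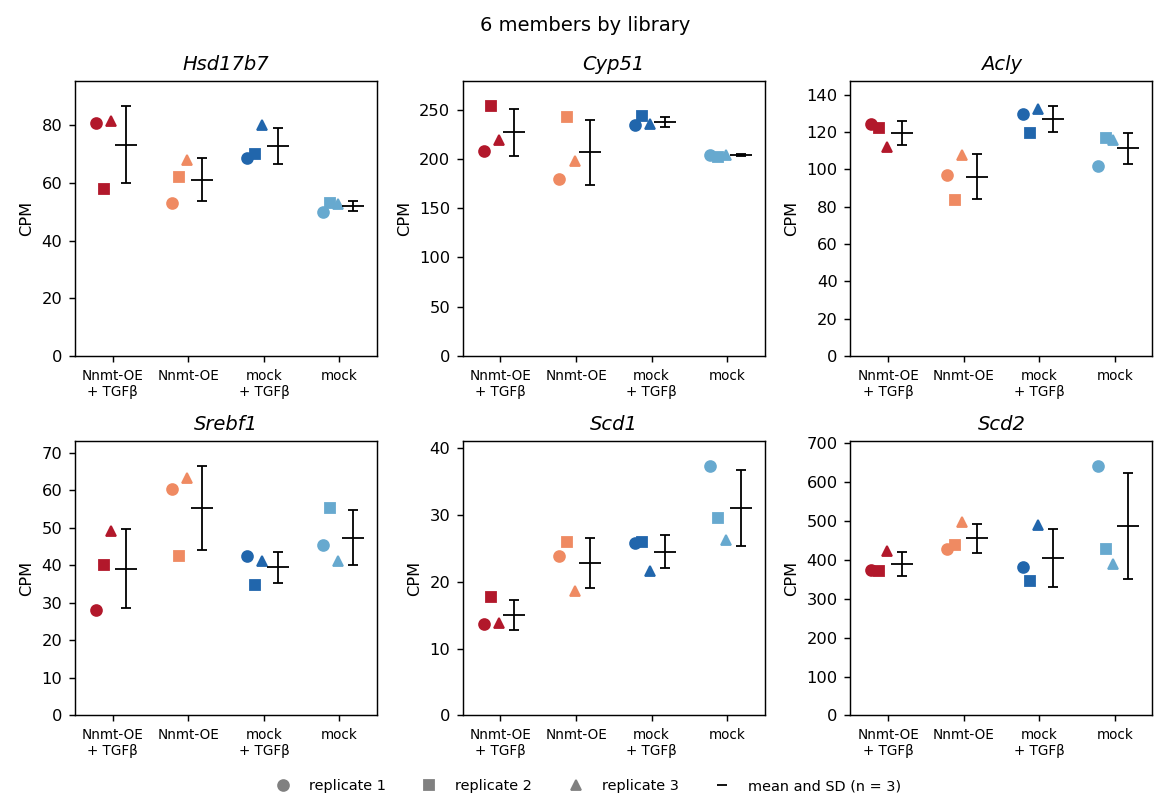
CPM of 6 genes in every library (vertical axis, from 0), by group, with replicate numbers as symbols and the mean and SD of 3 libraries as bars; Nnmt-OE stands for the labelled construct. The TGFβ means of Hsd17b7 and Acly lie above the untreated means of each construct, those of Srebf1 and Scd1 lie below, and the 641 CPM of Scd2 in replicate 1 of mock stands far above its other libraries.

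Within single constructs, TGFβ called 0 of the 33 members. In labelled Nnmt-OE cells 180 of 12897 genes were called (1.4%), and 6 members had an unadjusted p under 0.05, as did 11.1% of all genes (Acat2, Tm7sf2 and Acly higher, Srebf1, Insig2 and Scd1 lower). In mock cells 184 genes were called (1.43%), and 3 members, Lss, Cyp51 and Hsd17b7, had an unadjusted p under 0.05, all higher, as did 11.9% of all genes in either direction. DESeq2 called 0 members in either. The groups did not overlap for 5 members in labelled Nnmt-OE cells (3 higher and 2 lower) and for 6 in mock cells (5 higher and 1 lower), against 17.6% and 16.4% of all genes, which is near the background. For the 6 against 6 libraries of the averaged comparison, 0 members and 3.11% of all genes did not overlap.

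**Figure D4:**
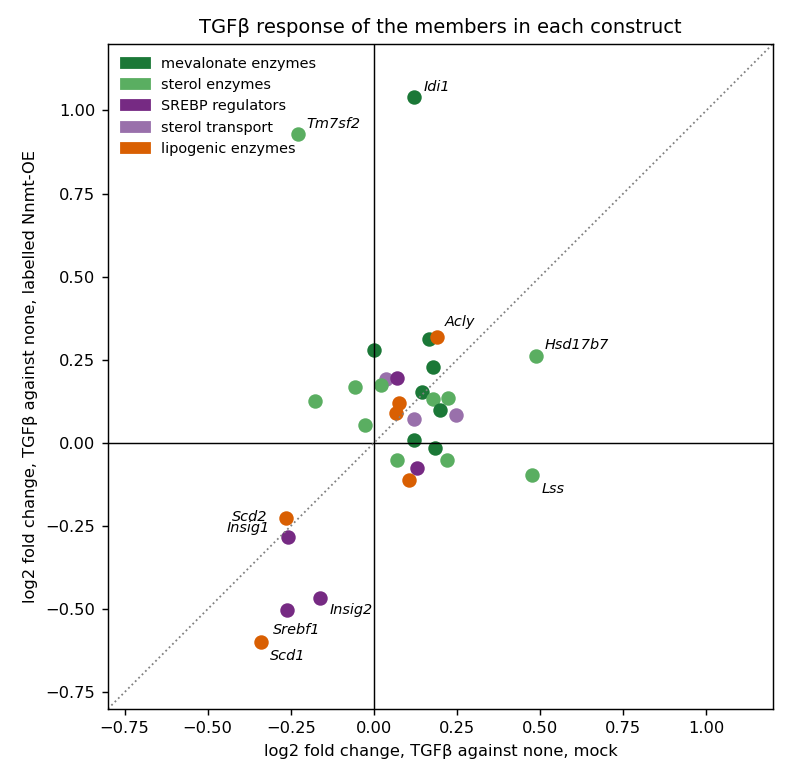
Log2 fold change with TGFβ against none for each of the 33 genes, in labelled Nnmt-OE cells (vertical axis) and in mock cells (horizontal axis), coloured by role, with a dotted line of equal change. In the upper right are 18 genes that were higher in both and in the lower left 5 that were lower in both (Srebf1, Insig1, Insig2, Scd1 and Scd2); Lss and Tm7sf2 lie off the line in opposite directions.

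The construct changed none of the 33 genes by the adjusted p. Between labelled Nnmt-OE and mock cells, edgeR called 3 of 12897 genes with TGFβ (0.0233%), 5 without (0.0388%) and 9 averaged over both treatments (0.0698%), and 0 members in each, as did DESeq2. At an unadjusted p under 0.05 there were 2 members with TGFβ (Fasn and Scd1), 1 without (Lss) and 2 averaged (Fasn and Scd1), against 4.46%, 5.84% and 6.23% of all genes. Groups did not overlap for 3 members with TGFβ and 9 without, against 10.2% and 10.9% of all genes, and for 0 members against 0.225% of all genes over both treatments. Of the 19 mevalonate and sterol enzymes, 5 had a positive averaged log2 change, against 49.6% of all genes, with a median of -0.06. That median was -0.02 without the 3 libraries that stood apart. With any 1 library left out, between 4 and 7 were positive, with a median between -0.09 and -0.03. These genes of 1 pathway were counted in the same libraries and are not independent of each other. The lowest adjusted p of these 19 in the averaged comparison was 0.823 by edgeR's test. The half-widths of the 95% intervals had a median of 0.22 over the 33 members in both averaged comparisons, which limits the size of change that 12 libraries can show.

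Scd1 had the smallest p of the members in the averaged construct comparison. Its libraries labelled Nnmt-OE were lower than the mock libraries of the same treatment without overlap, both with and without TGFβ. Without TGFβ the groups were only narrowly apart, the nearest libraries being at 26.0 CPM in labelled Nnmt-OE and 26.1 CPM in mock. The log2 change was -0.70 ± 0.23 with TGFβ, -0.44 ± 0.22 without and -0.57 ± 0.16 averaged, with adjusted p values of 0.892, 0.845 and 0.306 by edgeR's test. The averaged change ran from -0.64 to -0.49 when any 1 library was left out, and DESeq2 gave an adjusted p of 0.0979. Fasn, of the same pathway, had 189, 165 and 181 CPM in labelled Nnmt-OE cells with TGFβ, against 185, 137 and 135 CPM in mock cells with TGFβ. Without TGFβ Fasn had 160, 176 and 156 CPM in labelled Nnmt-OE cells, against 145, 151 and 139 CPM in mock cells. The Fasn groups overlapped with TGFβ and were apart without it. Its averaged change was 0.20 ± 0.08 (unadjusted p 0.0134, adjusted p 0.690, edgeR). The sign was opposite to that of Scd1, but neither change was called.

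The wider pathway was taken from a list of 69 further genes, of which 64 had enough reads to be tested. With TGFβ averaged over both constructs, 2 were called higher, 2 lower and 60 neither, by edgeR's adjusted p, so that 6.25% were called, near the 5.08% of all genes. Plin2, the coat protein of lipid droplets, had 121, 105 and 111 CPM in labelled Nnmt-OE cells with TGFβ, against 83.3, 71.3 and 82.3 CPM without. In mock cells Plin2 had 101, 112 and 127 CPM with TGFβ, against 105, 79.5 and 86.1 CPM without. It was higher by 0.42 ± 0.09 (adjusted p 0.00222, edgeR) and was called in all 12 fits that left out 1 library. Within labelled Nnmt-OE cells Plin2 rose by 0.51 ± 0.13 (adjusted p 0.0256), a call that was lost without replicate 1 or 3 with TGFβ or any 1 of the 3 untreated libraries (adjusted p up to 0.147). In mock cells its change was 0.33 ± 0.13 (adjusted p 0.237).

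The list of sterol efflux, storage and liver X receptor genes had 13 tested members, of which 12 had a negative TGFβ change, 2 were called lower and none higher, with a median of -0.17. Over all genes 50.8% were negative and 2.6% were called lower. The genes of this list were counted in the same libraries and are not independent of each other. The sterol efflux genes Abca1 and Abcg1 are on the list but had too few reads to be tested (52 and 60 over all libraries). Lpcat3, a phospholipid acyltransferase that the liver X receptors induce, had 50.7, 54.2 and 60.1 CPM in labelled Nnmt-OE cells with TGFβ, against 75.6, 63.4 and 70.2 CPM without. In mock cells Lpcat3 had 52.4, 46.2 and 54.3 CPM with TGFβ, against 71.2, 74.7 and 60.3 CPM without. All 6 TGFβ libraries were below all 6 untreated ones, and the change was -0.39 ± 0.10 (adjusted p 0.0146, edgeR), no longer called without replicate 1 of labelled Nnmt-OE with TGFβ (0.0533), replicate 1 of labelled Nnmt-OE (0.0551) or replicate 2 of mock with TGFβ (0.0603). Mylip, a ubiquitin ligase for lipoprotein receptors that the liver X receptors induce, had a change of -0.85 ± 0.23 (adjusted p 0.0230, edgeR), at 3.89 to 19.5 CPM. That call was lost without replicate 2 of labelled Nnmt-OE with TGFβ (0.0828), replicate 2 of labelled Nnmt-OE (0.0619), replicate 3 of mock with TGFβ (0.0635), replicate 1 or 3 of mock (0.0527 and 0.0566) or the 3 libraries that stood apart (0.0717). Vldlr, a lipoprotein receptor, was lower with TGFβ in labelled Nnmt-OE cells by -0.43 ± 0.12 (adjusted p 0.0455, edgeR) and had a change of 0.00 ± 0.12 in mock cells. The interaction for Vldlr had an unadjusted p of 0.0114 and an adjusted p of 0.999 by edgeR's test, and was not called. The TGFβ call of Vldlr within labelled Nnmt-OE cells held in 4 of the 12 fits that left out 1 library. Those were the fits without replicate 2 of labelled Nnmt-OE, replicate 3 of mock with TGFβ, or replicate 1 or 3 of mock. In the others its adjusted p was up to 0.274 (edgeR).

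Few genes of the other lists were called. For TGFβ averaged over both constructs, 1 of the 15 genes of the sterol branch (6.67%) was called higher and none lower, against 5.08% of all genes called. Of the 11 genes of SREBP control edgeR called 0 in that comparison. There 1 had an unadjusted p under 0.05, as did 16.6% of all genes, and the median change was -0.05. Of the 25 tested genes of fatty acid and glycerolipid synthesis Plin2 alone (4%) was called in it, and the median change was -0.03. Between constructs, 0 of the 64 genes were called by edgeR or DESeq2 with TGFβ, without it or averaged. By edgeR 0, 5 and 1 had an unadjusted p under 0.05, against 4.46%, 5.84% and 6.23% of all genes. The smallest p of the averaged comparison belonged to Acsl3, an acyl-CoA synthetase, at -0.28 ± 0.10 (adjusted p 0.635, edgeR). Next came the 3-hydroxyacyl-CoA dehydratase Hacd3 at -0.17 ± 0.09, with an adjusted p of 0.805 by the same test.

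Other features of the cultures moved with TGFβ beside these genes. For markers, CPM is scaled to the library's total over all genes, without TMM. Of the 12 tubular markers 7 had enough reads to be tested, and Aqp1 alone had 595 to 1146 CPM. The summed level of the 12 was 1554 to 1676 CPM in labelled Nnmt-OE cells with TGFβ, against 2023 to 2077 CPM without. In mock cells it was 1500.3 to 1526 CPM with TGFβ, against 1666 to 2019 CPM without. Of 7 fibroblast markers 2 had enough reads to be tested, Col1a1 and Col1a2 (467 and 103 reads over all libraries). No other marker of that list had more than 25 reads, and Col3a1 and Lum had none. The summed level of the 7 was 10.7 to 15.9 CPM in labelled Nnmt-OE cells with TGFβ, against 1.63 to 8.07 CPM without. In mock cells it was 7.90 to 13.7 CPM with TGFβ, against 3.31 to 6.59 CPM without. The part of these differences in the changes of the lipid genes was not tested. The sum of 5 immune markers stayed between 4.00 and 13.5 CPM and that of 4 podocyte markers between 203 and 245 CPM, with groups that overlapped, 4 endothelial markers had no read, and of 5 adipocyte markers 4 had no read and the sum did not exceed 0.668 CPM.

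The 3′ tags of some genes carry a further limit. In the mouse GENCODE annotation the last 500 bases of Fdps overlap another gene on the same strand, and those of Mvd, Fdft1, Lss, Cyp51, Srebf1 and Npc1 overlap a gene on the other strand. The strand setting of the counting is not given in the sources used here, so the counts of these 7 genes could hold or lose reads of a neighbour, and those of the other 26 have no such overlap.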

How the data were processed

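Read counts per gene were deposited as 1 table of raw counts for 12 libraries. STAR, a read aligner, and HTSeq, a read counter, are named without versions in the submitters' processing notes. Those notes name GRCh38, whereas the gene IDs are mouse; the mouse build is not given in the sources used here. The table's summary rows were left out (no feature 26.4% to 28.8%, ambiguous 0.603% to 0.679% of reads). Symbols were matched to 55141 of 55487 IDs.

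Counts were filtered with filterByExpr (minimum count 10, total 15; 12897 genes kept and 42590 removed), scaled by TMM (factors 0.981 to 1.01) and fitted in edgeR 4.0.16 (R 4.3.3, limma 3.58.1) with a mean for each of the 4 groups, all 12 libraries in 1 fit and robust quasi-likelihood. A gene was called at an adjusted p under 0.05 (Benjamini-Hochberg over all genes tested), in 7 contrasts. Errors are SE or SD as stated, and intervals are 95%. CPM values are scaled by TMM, except those of the cell type markers, and deviations use log2 CPM with a prior count of 2. Alternatives were DESeq2 1.42.0, RLE size factors, no filter, a filter at 1 CPM in 3 libraries, a replicate block, only the groups compared, and leaving out libraries. Scripts were tested on simulated data.

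The members, lists and tests were chosen with earlier results of these data known. All 33 members are named; of the 69 further genes, those called in any contrast and those with the 3 smallest p values in the 2 averaged comparisons. Some genes that this rule covers are not reported here. Promoters come from RefSeq (GRCm38.p6).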

Additional observations from a re-analysis of the deposited data

How the results depend on the processing

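Direction was followed through the alternative fits for single-gene changes chosen for a small p or for a call in some fit, and none of these reversed. Signs of other members did change. For TGFβ in mock cells 15 of the 19 enzymes were positive, and 12 without replicate 3 of mock with TGFβ. For the construct with TGFβ 13 of the 33 members were positive, and 7 without replicate 3 of labelled Nnmt-OE with TGFβ. The median interaction of the 19 enzymes, close to 0 at 0.0082, was -0.07 without the 3 libraries that stood apart and -0.06 to 0.06 with any 1 library left out, and the median of all members between constructs with TGFβ, -0.03, was 0.0087 without replicate 3 of mock with TGFβ. With DESeq2, 3 members (Hsd17b7, Acly and Scd1) and 6.16% of all genes were called for TGFβ averaged over both constructs (5.08% with edgeR), and the genes called were 274 for TGFβ in labelled Nnmt-OE, 284 for TGFβ in mock and 27 for the averaged construct comparison. Without the filter, 2 members (Hsd17b7 and Scd2) and 3.54% of 20539 genes were called for averaged TGFβ, with 13 genes for the construct in untreated cells and 19 for the construct averaged. With only the groups compared, TGFβ called 351 genes in labelled Nnmt-OE and 92 in mock, and the construct called 3 without TGFβ. Without the 3 libraries that stood apart, 2 members (Srebf1 and Scd2) were called for TGFβ, both within labelled Nnmt-OE and averaged (5.37% of all genes), and Hsd17b7 was not. The cause of these changes was not tested.

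Leaving out 1 library at a time gave 0 to 3 members called for averaged TGFβ and 0 in the other comparisons. The same fits called 473 to 649 genes for averaged TGFβ, 97 to 305 for TGFβ in labelled Nnmt-OE, 98 to 188 for TGFβ in mock, 1 to 3 for the construct with TGFβ, 3 to 6 without and 5 to 9 averaged. Libraries with the same replicate number did not deviate together (correlations of -0.10 to 0.05 over 18 pairs, 0 above 0.1), and 4 of 12 correlated best with their own number. No pairing by number was visible, but this cannot show that libraries of the same number were handled apart. With the replicate block, 1 member was called for averaged TGFβ, again Hsd17b7 (adjusted p 0.0249, edgeR), and Vldlr in labelled Nnmt-OE was not (adjusted p 0.0556). At 161 reads in all, Idi1 is the member that depth limits most.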

Other observations

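Replicate 1 of mock was the library farthest from its group's mean for 6 of the 33 members, the most of any library. Over all genes tested it also had the largest mean absolute deviation from its group's mean (0.287 on the log2 scale). Over the members that mean was 0.186, slightly below the 0.188 of replicate 3 of labelled Nnmt-OE. In replicate 1 of mock Scd2 had 641 CPM, against 427 and 389 CPM in the other mock libraries, and Sqle had 164 CPM, against 101 and 108 CPM. Mvd had 53.8 CPM, against 41.4 and 36.8 CPM, whereas Hmgcs1 and Pmvk were at their lowest in the mock group, at 288 and 24.2 CPM. Tm7sf2, at 13.5 CPM, was about level with replicate 1 of labelled Nnmt-OE with TGFβ at 14.4 CPM, and both lay above the 3.04 to 10.6 CPM of the other libraries.

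The spread between replicates differed much among the members. The residual SD on the log2 scale was lowest for Msmo1 (0.08) and Ggps1 (0.09) and highest for Idi1 (0.72) and Tm7sf2 (0.52), the members with the fewest reads. Insig1, at 12.4 to 26.8 CPM, had a residual SD of 0.32 and Npc1, at 19.1 to 37.5 CPM, one of 0.30.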
